A study of Mus musculus with 50 samples.

Results

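Solute carrier (Slc) genes encode membrane proteins that move nutrients, ions, nucleotides and metabolites across the plasma membrane, organelle membranes and the inner mitochondrial membrane. This account covers the expressed Slc genes of the mouse macrophage line RAW264.7, described across genotypes and treatments. Members were chosen by their mean TPM (a transcript level corrected for gene length and depth): they are the protein-coding genes whose symbol is Slc followed by a digit and whose mean over 50 libraries was at least 5 TPM. Of 376 protein-coding Slc genes in the tables, 152 reached that level, 9 of these were left out by name and 143 remained; the tables hold 55416 genes in all. The level chose the members, so that they are expressed is no result. Just inside the threshold lay Slc25a43 (6.37 TPM), Slc17a9 (6.10) and Slc26a6 (5.04), and just outside lay Slc25a14 (4.85), Slc22a5 (4.31) and Slc38a9 (3.86).

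RNA sequencing was performed on lines edited with CRISPR guides and on control cells, which the labels call WT or empty vector and the design text describes as carrying a control guide. Lines were edited at SGK1, SGK3 or both (dKO, the double knockout), and cells were either untreated (rest) or given DMXAA, which activates mouse STING, at 10 µg/mL for 2 h. A further set of control cells received 500 nM Sanofi-14h, an SGK inhibitor, for 2 h before DMXAA. In batch b1, 3 resting control libraries stood beside 5 with DMXAA and 5 with inhibitor followed by DMXAA; the SGK3 knockout gave 3 resting and 5 DMXAA libraries, and the dKO gave 5 DMXAA libraries. In batch b2, resting and DMXAA libraries numbered 3 and 4 for control cells, 3 and 4 for the SGK1 knockout, and 3 and 3 for the dKO. Batch b3 held 4 libraries with titles marked as reruns, of which 1 is an SGK1 knockout with DMXAA (S), 2 are dKO with DMXAA (V and W) and 1 (J, control cells) has labels that disagree on treatment and belongs to no group. The labels do not say whether replicates came from separate cultures or whether each edited line is 1 clone, so p-values measure the spread between these libraries, which may be technical. Some cells received the vehicle DMSO before stimulation, and which libraries these were is not stated in the sources used here.

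SGK1 and SGK3 are serine/threonine kinases that act downstream of PI3K. They are best known for raising the abundance or activity of ion channels and carriers, in part by phosphorylating the ubiquitin ligase NEDD4-2. In Xenopus oocytes both kinases stimulate the creatine transporter SLC6A8. STING, which DMXAA activates in mouse cells, drives interferon and NF-kB responses, and several Slc proteins of macrophage lysosomes act in innate immune signalling: SLC15A3 and SLC15A4 carry histidine and short peptides out of the endolysosome, and SLC15A4 holds the adaptor TASL, through which IRF5 is activated. RNA levels say nothing of a carrier's position in the cell or of its activity.

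Total depth ran from 57859509 to 112007140 estimated counts per library, of which the 143 genes took 1.08% to 1.26%. Of 9 macrophage markers, 8 had a mean of at least 1 TPM, and none of the 3 markers each of T cells, B cells, neutrophils, fibroblasts, epithelium and endothelium did. Cxcl10, an interferon-induced chemokine, lay between 1.59 and 14.8 TPM in every library at rest and between 217 and 1130 TPM in every library with DMXAA, b3 included. Sgk1 RNA with DMXAA averaged 38.0 TPM in control cells of b1 and 27 in b2, against 3.57 in the SGK1 knockout, 3.60 and 2.39 in the dKO of b1 and b2, 15.8 in the SGK3 knockout and 8.60 with inhibitor. Sgk3 RNA was not clearly lower in the lines edited at SGK3, so its RNA gives no check of that edit. In b1 at rest the SGK3 knockout averaged 47.4 TPM against 49.3 in control cells, with overlapping libraries. With DMXAA that knockout averaged 51.4 TPM and the dKO 60.2, against 49.97 in control cells and 45.8 with inhibitor. The median coefficient of variation of the 143 genes was 3.76% to 7.38% in the groups of b1 and 7.04% to 11.4% in those of b2.

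The libraries of b3 were set beside those of b2. With so few libraries, some genes fall outside the range of the other batch without any shift between batches. Libraries V and W both lay below all 3 dKO libraries with DMXAA of b2 for 51 of the 143 genes (35.7%) and above them for 9 (6.29%), against 25.2% and 12.7% of the 8788 protein-coding genes at 5 TPM or more. Against transcript length, log2 levels in V and W sloped by -0.12 and -0.33 per doubling relative to the b2 mean, those in S by -0.18 and those in J by -0.13. The libraries of b2 themselves ran from -0.19 to 0.33, so only W lay outside their range. The b3 libraries entered no main comparison, and the main results that rest on the b2 groups with DMXAA are given below also with them added, an alternative chosen after seeing the data. Whether a rerun is the same RNA sequenced again is not stated in the sources used here.

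Levels spanned a wide range. Mitochondrial carriers of the Slc25 family were the largest class, with 32 genes and 39.8% of the summed TPM of the 143 genes. They were led by Slc25a5, an ADP/ATP carrier, at 1358 TPM, Slc25a3, the phosphate carrier, at 549 TPM, and Slc25a4, another ADP/ATP carrier, at 195 TPM. Nucleotide sugar and related carriers of the Slc35 family followed with 19 genes and 9.37%, and zinc carriers with 15 genes and 8.68%. Slc6a12, a betaine carrier, stood at 279 TPM and Slc6a6, the taurine carrier, at 260 TPM. The others among the 10 highest were Slc16a1, a monocarboxylate carrier (194 TPM), Slc25a39, a mitochondrial glutathione carrier (187), Slc44a1, a choline carrier (168), Slc35a4 (132) and Slc30a5, a zinc carrier of the secretory pathway (129). Slc6a8 (8.29 TPM) and Slc15a3 (9.69 TPM) were near the low end. The symbol rule also admits 3 genes that encode no transporter: Slc7a6os, Slc4a1ap and Slc9a3r1.

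**Figure D1:**
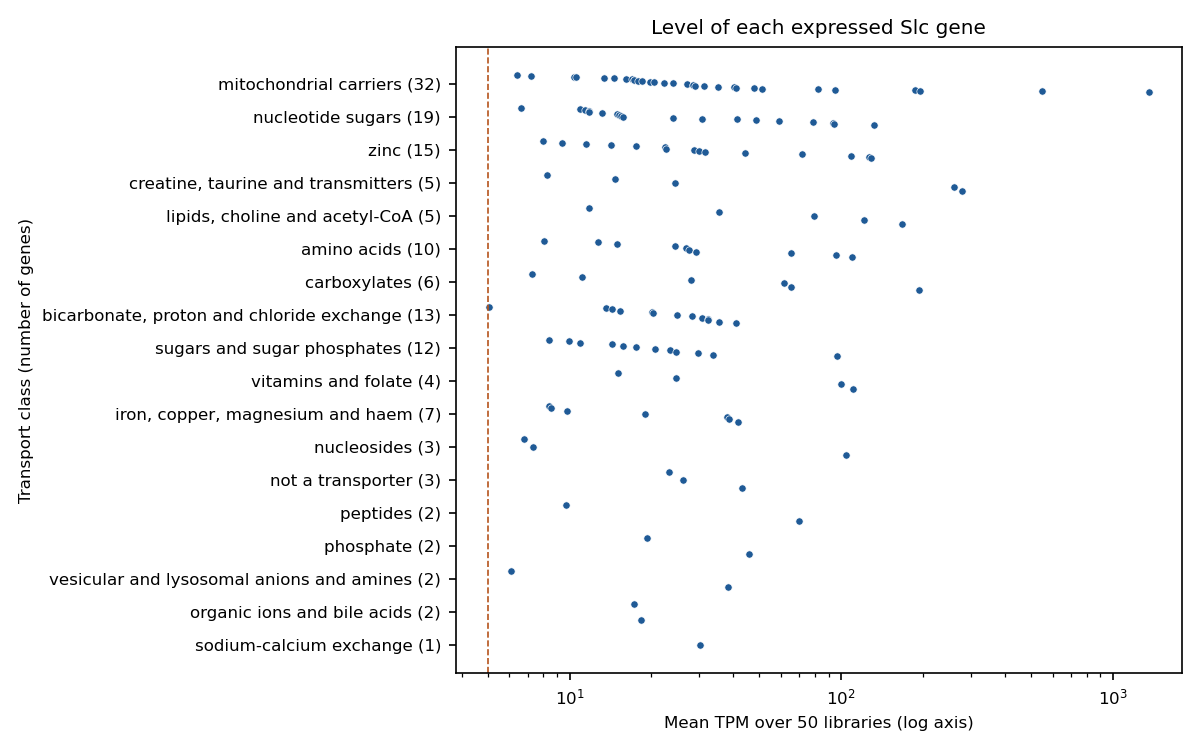
Mean TPM over 50 libraries (log axis) of each of the 143 genes, 1 point per gene, in rows by transport class; the dashed line marks the 5 TPM threshold of the rule. Mitochondrial carriers reach the highest level, with Slc25a5 at 1358 TPM.

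Slc6a8 (ENSMUSG00000019558.15, chromosome X, 72716756 to 72726108, plus strand, GRCm39) encodes the creatine transporter, and its group means had the widest range of the 143 genes, 9.08-fold. In b1, its level in CPM (counts scaled to library size with TMM factors) was 12.5, 14.8 and 12.9 in control cells at rest and 11.6, 9.97, 10.3, 9.83 and 11.0 with DMXAA. SGK3 knockout libraries had 30.3, 28.7 and 26.9 CPM at rest and 22.4, 23.5, 22.3, 21.2 and 27.9 with DMXAA. The dKO libraries had 19.8, 20.8, 22.2, 18.8 and 18.5 CPM with DMXAA, and inhibitor-treated control cells 13.9, 13.9, 15.5, 13.6 and 15.2. Every SGK3 knockout and dKO library of b1 thus lay above every control library, and inhibitor-treated libraries lay above the control libraries with DMXAA alone. By edgeR's quasi-likelihood test with Benjamini-Hochberg adjustment over all genes tested, Slc6a8 was higher in SGK3 knockout cells without stimulation (log2 fold change 1.09 ± 0.10 SE, adjusted p = 2.77e-10) and with DMXAA (1.15 ± 0.07, adjusted p = 1.08e-13). It was also higher in the dKO with DMXAA (0.92 ± 0.07, adjusted p = 1.19e-11) and with the inhibitor (0.45 ± 0.07, adjusted p = 3.55e-05). In bulk RNA, a change in every cell and a change in a share of the cells cannot be told apart.

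In b2 the pattern of Slc6a8 differed. Control cells had 6.30, 6.56 and 7.44 CPM at rest and 6.04, 7.22, 6.86 and 6.05 with DMXAA, and these libraries overlapped. SGK1 knockout cells had 3.57, 3.39 and 3.58 CPM at rest and 10.2, 7.47, 11.6 and 9.11 with DMXAA. The dKO had 7.38, 10.3 and 5.41 CPM at rest and 29.4, 33.2 and 34.4 with DMXAA. SGK1 knockout libraries at rest were therefore all below, and those with DMXAA all above, every control library, while the dKO overlapped control cells at rest and stood far above them with DMXAA. Compared with control cells, Slc6a8 was lower in resting SGK1 knockout cells (log2 fold change -0.95 ± 0.20, adjusted p = 0.00716) and higher in the dKO with DMXAA (2.30 ± 0.18, adjusted p = 1.71e-08). The difference at rest missed the threshold without libraries E, F, P and X, whose levels rose with transcript length by more than 0.1 log2 units per doubling (adjusted p = 0.230), and with the compared groups fitted alone (0.0549). The rise of Slc6a8 in the SGK1 knockout with DMXAA (0.55 ± 0.17) was borderline at adjusted p = 0.0436. It missed the threshold without control library K (0.114), L (0.0651), M (0.0644) or N (0.123), or without SGK1 knockout library O (0.0749), Q (0.130) or R (0.0664), leaving 1 out at a time, and with b3 added (0.38, adjusted p = 0.738).

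Slc6a8 did not respond to DMXAA alike in all lines. In control cells of b1 it fell (log2 fold change -0.35 ± 0.09, adjusted p = 0.00156), and the value was -0.05 ± 0.18 in those of b2 (adjusted p = 1.0). It rose in the SGK1 knockout by 1.45 ± 0.19 (adjusted p = 2.07e-05) and in the dKO of b2 by 2.07 ± 0.20 (adjusted p = 5.01e-07). The response exceeded that of control cells by 1.5 ± 0.26 in the SGK1 knockout (interaction, adjusted p = 0.00781) and by 2.12 ± 0.26 in the dKO (adjusted p = 0.000199). Without libraries E, F, P and X, the interaction of the SGK1 knockout missed the threshold (1.59, adjusted p = 0.0781). These 4 libraries are all from edited lines, and 5 others had slopes below -0.1, among them control libraries B (-0.19), L (-0.16) and N (-0.15) and dKO libraries T (-0.14) and I (-0.11). Without all 9, an alternative chosen after seeing the data that leaves 1 library each for resting SGK1 knockout and DMXAA-treated dKO cells, assumed to vary like the other groups, both interactions missed the threshold (1.61, adjusted p = 0.306, and 1.99, adjusted p = 0.0732), and so did the differences of the SGK1 knockout at rest (-0.94, adjusted p = 0.410) and with DMXAA (0.67, adjusted p = 0.140). What stayed past it were the dKO difference with DMXAA (2.35, adjusted p = 0.000240), the DMXAA rise of the dKO (1.91, adjusted p = 0.00139) and that of the SGK1 knockout (1.53, adjusted p = 0.0123). In the SGK3 knockout the response differed from that of control cells by 0.06 ± 0.12 (adjusted p = 0.949). Between batches, the dKO difference from control cells with DMXAA was larger in b2 than in b1 by 1.37 ± 0.17 (adjusted p = 3.92e-07).

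The b3 libraries did not show the high Slc6a8 level. In TPM, the dKO libraries with DMXAA of b2 had 16.9, 21.0 and 23.9, whereas V and W, with the same genotype and treatment labels, had 3.63 and 3.60. The control cells with DMXAA of b2 lay between 3.71 and 4.41 TPM. SGK1 knockout library S had 2.30 TPM, below the 4.61 to 6.73 of its b2 counterparts. With S, V and W added to their b2 groups, the rise of Slc6a8 with DMXAA missed the threshold in the SGK1 knockout (1.29, adjusted p = 0.0813) and in the dKO (1.53, adjusted p = 0.0731). Both interactions missed it too (1.33, adjusted p = 0.639, and 1.57, adjusted p = 1.0), and the dKO difference with DMXAA kept it (1.75, adjusted p = 0.01). The level of T, U and X was thus not seen in V and W.

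Slc15a3 (ENSMUSG00000024737.3, chromosome 19, 10817091 to 10836726, plus strand) encodes the endolysosomal peptide and histidine carrier. In b1 it stood at 18.2, 13.2 and 15.5 CPM in control cells at rest and 15.5, 20.5, 17.1, 17.0 and 18.5 with DMXAA. The dKO with DMXAA had 11.8, 11.4, 8.58, 11.0 and 8.83 CPM, SGK3 knockout cells 13.6, 13.2, 14.7, 13.8 and 9.89, and inhibitor-treated control cells 11.1, 12.7, 13.3, 15.0 and 11.9. No library of these 3 groups reached the lowest control library with DMXAA. The log2 fold change of Slc15a3 was -0.78 ± 0.11 in the dKO (adjusted p = 1.01e-06), -0.44 ± 0.11 in the SGK3 knockout (adjusted p = 0.00243) and -0.47 ± 0.11 with the inhibitor (adjusted p = 0.00188). At rest, SGK3 knockout libraries had 13.1, 13.8 and 11.3 CPM, overlapping control cells. The DMXAA response of that line differed from that of control cells by -0.15 ± 0.18 (interaction, adjusted p = 0.866).

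In b2, Slc15a3 in the dKO was at 10.3, 8.94 and 6.67 CPM at rest, below the 14.01, 16.9 and 16.1 of control cells (log2 fold change -0.86 ± 0.20, adjusted p = 0.0191). That call was lost without dKO library H (adjusted p = 0.0704) or I (0.144), or control library B (0.0878) or C (0.0652). With DMXAA the dKO had 15.9, 15.6 and 14.6 CPM, within the 9.92, 14.3, 14.3 and 20.9 of control cells, a difference of 0.05 ± 0.19 (adjusted p = 0.935). The dKO difference with DMXAA was higher in b2 than in b1 by 0.82 ± 0.21 (adjusted p = 0.00932). DMXAA raised Slc15a3 in the dKO (0.83 ± 0.20, adjusted p = 0.0143) and in the SGK1 knockout (0.64 ± 0.19, adjusted p = 0.0345), but not past the threshold with b3 added (0.58, adjusted p = 0.244, and 0.54, adjusted p = 0.149). The dKO rise was also lost without dKO rest library I (0.0905). The SGK1 knockout rise was lost without library O (0.0912), Q (0.0568), R (0.0619), E (0.0993) or F (0.124). In V and W, Slc15a3 was at 6.40 and 4.79 TPM, below the 10.1 to 12.4 TPM of the b2 dKO libraries with DMXAA, and in S it was at 9.45 TPM, below 13.1 to 16.6.

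**Figure D2:**
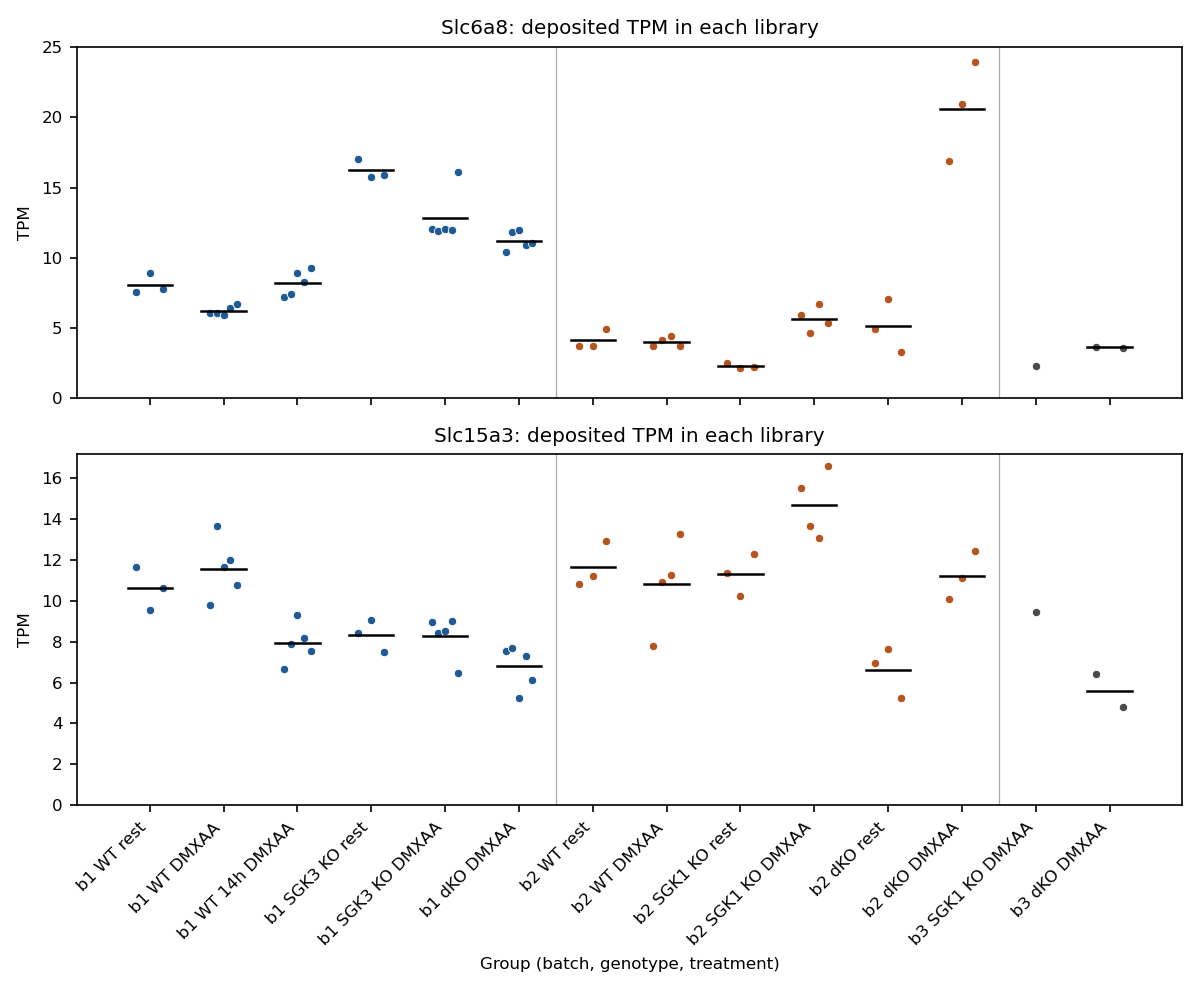
Deposited TPM of Slc6a8 (top) and Slc15a3 (bottom) in each library with a group, points by batch (b1 blue, b2 orange, b3 grey) and bars at group means; 14h is Sanofi-14h. In the dKO with DMXAA, Slc6a8 is at 16.9 to 23.9 TPM in b2 and at 3.63 and 3.60 in b3.

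Among the 143 genes, more were called with DMXAA in control cells of b1 than in those of b2. The batches differ in power, with 5 DMXAA libraries of control cells in b1 and 4 in b2. Median coefficients of variation at rest and with DMXAA were 5.56% and 7.38% in b1, and 7.04% and 7.76% in b2. The counts are therefore no measure of a difference in effect. In control cells of b1, 32 genes rose and 46 fell (54.5%), where 35.3% of all 16947 genes tested were called, and 48.7% of the protein-coding genes at 5 TPM or more. In control cells of b2, 7 rose and 3 fell (6.99%), beside 3.98% of 16622 genes tested and 6.30% at 5 TPM or more. The b2 count was 6 without control rest library B or C. The share of Slc genes was thus near that of genes of like level. Of the genes that rose, 5 did so in both batches, which is 15.6% of those of b1 and 71.4% of those of b2: Slc25a25, Slc23a2, Slc12a9, Slc11a2 and Slc25a44. Slc16a12, Slc35e4 and Slc37a4 fell in both, although the b2 call of Slc35e4 was lost without any 1 of its 7 libraries (adjusted p from 0.0568 to 0.187). A test of the difference between batches called 10 of the 143 genes, 5 in each direction (6.99%, beside 3.21% of 18315 genes and 5.61% at 5 TPM or more), among them Slc25a25, Slc38a1 and Slc11a2 with smaller rises in b2.

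Slc25a25, a calcium-regulated ATP-magnesium/phosphate carrier of the inner mitochondrial membrane, had the largest rise of the 143 genes in control cells of both batches. It went from 36.0, 32.5 and 34.7 CPM at rest to 95.2, 94.1, 90.9, 85.3 and 86.8 with DMXAA in control cells of b1, and from 34.7, 31.8 and 29.7 to 63.6, 63.5, 62.5 and 63.6 in those of b2. The groups did not overlap in either batch. The log2 fold changes were 1.39 ± 0.06 (adjusted p = 5.35e-18) and 0.98 ± 0.11 (adjusted p = 8.91e-06). Edited lines also showed the rise, with 1.17 ± 0.06 in the SGK3 knockout, 1.46 ± 0.12 in the SGK1 knockout and 1.04 ± 0.12 in the dKO, all past the threshold. In V and W it was at 31.0 to 38.4 TPM, beside 36.2 to 42.4 TPM in the b2 dKO with DMXAA and 17.9 to 21.0 TPM in control cells at rest.

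Slc23a2, the plasma membrane carrier of ascorbate (vitamin C), rose by 1.34 ± 0.07 in control cells of b1 (adjusted p = 4.76e-17) and by 0.94 ± 0.13 in those of b2 (adjusted p = 9.86e-05). Its libraries were at 196, 187 and 183 CPM at rest and 424, 499, 500, 485 and 471 with DMXAA in b1, with no overlap. Slc38a1, a sodium-coupled carrier of glutamine and other neutral amino acids, rose by 0.79 ± 0.06 in b1 (adjusted p = 4.75e-12), and Slc11a2, the divalent metal carrier that moves iron, by 0.67 ± 0.07 (adjusted p = 2.03e-09). Among the genes that fell in b1 were Slc16a13, a monocarboxylate carrier (-0.83 ± 0.07, adjusted p = 1.89e-11), Slc5a3, the sodium/myo-inositol carrier (-0.78 ± 0.13, adjusted p = 5.40e-05), Slc26a2, a sulfate carrier (-0.75 ± 0.07, adjusted p = 1.42e-10), and Slc29a2, a nucleoside carrier (-0.71 ± 0.12, adjusted p = 1.27e-05). By class, mitochondrial carriers split into 7 up, 13 down and 12 not called, and nucleotide sugar carriers into 4 up, 9 down and 6 not called, against the 35.3% of all genes and 48.7% at 5 TPM or more called in that comparison. The 3 mitochondrial carriers of highest level did not pass (Slc25a5 0.09, Slc25a3 0.12 and Slc25a4 -0.02 on the log2 scale).

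The SGK3 knockout responded to DMXAA with 33 genes up and 35 down (47.6%, beside 30.1% of genes tested and 43.7% at 5 TPM or more), again led by Slc23a2 (1.18 ± 0.07) and Slc25a25. In b2, 17 genes rose and 16 fell in the SGK1 knockout (23.1%, beside 11.2%), and 22 rose and 5 fell in the dKO (18.9%, beside 6.76%). Both shares were above those at 5 TPM or more, 17.6% and 11.2%. With the b3 libraries added, the counts were 18 and 13. The SGK1 knockout count was 20 without rest library F, and 13 without libraries E, F, P and X. The shares of all genes called in these altered fits are not given here.

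Promoter sequence was available for 108 of the 143 genes (150 starts) in RefSeq tables of the mouse build GRCm38.p6, as 250 bases before and 50 after each start. Shown here are the 250 bases before the start, 5′ to 3′ on the gene's strand, for the 2 genes with the largest rise on DMXAA in control cells of both batches (Slc25a25 and Slc23a2), the gene with the largest decrease in the SGK1 knockout and dKO (Slc30a4) and a gene higher in all of them (Slc16a12), all on the minus strand. Slc25a25 has 3 starts in the table and Slc23a2 has 2, of which 1 is shown for each. The stretches lie at chr2:32424067-32424316, chr2:132145109-132145358, chr2:122702664-122702913 and chr19:34747329-34747578. Capitals mark matches to the motifs given next.
Slc25a25: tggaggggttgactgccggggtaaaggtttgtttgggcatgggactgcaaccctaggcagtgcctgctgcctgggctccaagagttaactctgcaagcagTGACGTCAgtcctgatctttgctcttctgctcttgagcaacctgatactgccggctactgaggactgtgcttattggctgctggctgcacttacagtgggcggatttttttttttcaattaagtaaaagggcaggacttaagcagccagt
Slc23a2: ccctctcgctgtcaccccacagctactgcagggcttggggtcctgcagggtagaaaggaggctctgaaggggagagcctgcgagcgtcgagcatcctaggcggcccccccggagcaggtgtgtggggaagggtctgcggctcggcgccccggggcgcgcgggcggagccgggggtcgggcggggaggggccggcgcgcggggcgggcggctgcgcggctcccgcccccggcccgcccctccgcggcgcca
Slc30a4: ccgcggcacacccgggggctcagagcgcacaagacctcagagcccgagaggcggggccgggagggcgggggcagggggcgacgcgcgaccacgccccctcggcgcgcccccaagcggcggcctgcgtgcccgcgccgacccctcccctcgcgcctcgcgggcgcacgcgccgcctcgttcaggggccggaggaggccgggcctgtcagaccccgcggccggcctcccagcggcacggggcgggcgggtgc
Slc16a12: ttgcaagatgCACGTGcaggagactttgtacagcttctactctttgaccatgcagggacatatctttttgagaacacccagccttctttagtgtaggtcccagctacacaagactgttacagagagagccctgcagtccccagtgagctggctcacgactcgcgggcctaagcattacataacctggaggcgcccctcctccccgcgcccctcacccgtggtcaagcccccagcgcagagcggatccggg
The motifs, searched on both strands, were the interferon-stimulated response element (ISRE), the gamma-activated site (GAS, TTCNNNGAA), NF-kB, AP-1 (TGANTCA), the cAMP response element (CRE, TGACGTCA), FOXO (GTAAACA) and the E-box (CACGTG). One start of Slc25a25 holds a CRE, and Slc16a12 holds an E-box, 240 bases before its start. The stretches of Slc23a2 and Slc30a4 hold none of these letters. Of all 32851 promoters in the table, 1.79% held the CRE and 7.15% the E-box, against 2.00% and 14.7% of the 150 starts of the Slc genes. The ISRE was in 3.44% of all promoters and 2.00% of those of the Slc genes, the GAS in 8.30% and 2.67%, NF-kB in 1.47% and 2.00%, AP-1 in 7.81% and 4.67%, and FOXO in 3.65% and 0.667%. These matches are a description of letters and not of binding.

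Without stimulation, few of the 143 genes differed between edited lines and control cells. The SGK3 knockout had 14 genes higher and 7 lower (14.7%, beside 10.4% of genes tested and 14.2% at 5 TPM or more), with a count of 13 without control library 3 and 11 without SGK3 knockout library 1. Slc44a2, a choline-like carrier, was higher at 183, 180 and 191 CPM against 122, 107 and 109 (log2 fold change 0.72 ± 0.08, adjusted p = 1.20e-07). Slc43a2, a neutral amino acid carrier (0.55 ± 0.07, adjusted p = 4.58e-07), and Slc11a1, the phagosomal metal carrier (0.47 ± 0.11, adjusted p = 0.00246), were also higher. Slc6a13, a GABA carrier (-0.45 ± 0.12, adjusted p = 0.00749), and Slc6a9, a glycine carrier (-0.43 ± 0.10, adjusted p = 0.00374), were lower. The last pair lost their calls without SGK3 knockout library 1 (adjusted p = 0.0556 and 0.0557), and Slc6a13 also without control library 1 (0.0949).

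The SGK1 knockout at rest had 7 genes higher and 4 lower (7.69%, beside 6.43% of genes tested and 10.0% at 5 TPM or more), a count that was unstable. It was 4 without control library A or B or SGK1 knockout library E or F, 35 without SGK1 knockout library D, and 2 without E, F, P and X. The slopes against length of E and F were 0.22 and 0.33 per doubling. The dKO at rest had 1 gene higher, Slc16a12, and 6 lower (4.90%, beside 3.03% and, at 5 TPM or more, 4.12%), with a count of 3 without dKO library H, 2 without I, 4 without control library A and 3 without C. Slc11a1 was among the lower genes of the dKO at rest (-0.92 ± 0.20, adjusted p = 0.00883), a call lost without dKO library I (adjusted p = 0.0847).

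With DMXAA, more of the 143 genes were called between edited lines and control cells than at rest. Groups with DMXAA held 5 libraries in b1 and 3 or 4 in b2, against 3 at rest, so the counts also differ in power. The direct tests of the difference in response, given below, called 1, 3 and 6 genes. The SGK3 knockout had 31 higher and 19 lower (35.0%, beside 22.9% of genes tested), and the dKO of b1 had 36 higher and 22 lower (40.6%, beside 26.4%). In b2 the SGK1 knockout had 21 higher and 13 lower (23.8%, beside 8.72%), and the dKO had 20 higher and 15 lower (24.5%, beside 12.8%). Among protein-coding genes at 5 TPM or more the shares were 31.5%, 35.7%, 13.5% and 19.8%. The median log2 fold change over the 143 genes was 0.04 in the SGK3 knockout, 0.04 in the dKO of b1, 0.03 in the SGK1 knockout and 0.02 in the dKO of b2, so the group did not move one way. The SGK1 knockout count was 22 without control library L and 21 without N, and with b3 added the b2 counts were 11 and 20. The shares of all genes called in these fits are not given here.

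**Figure D3:**
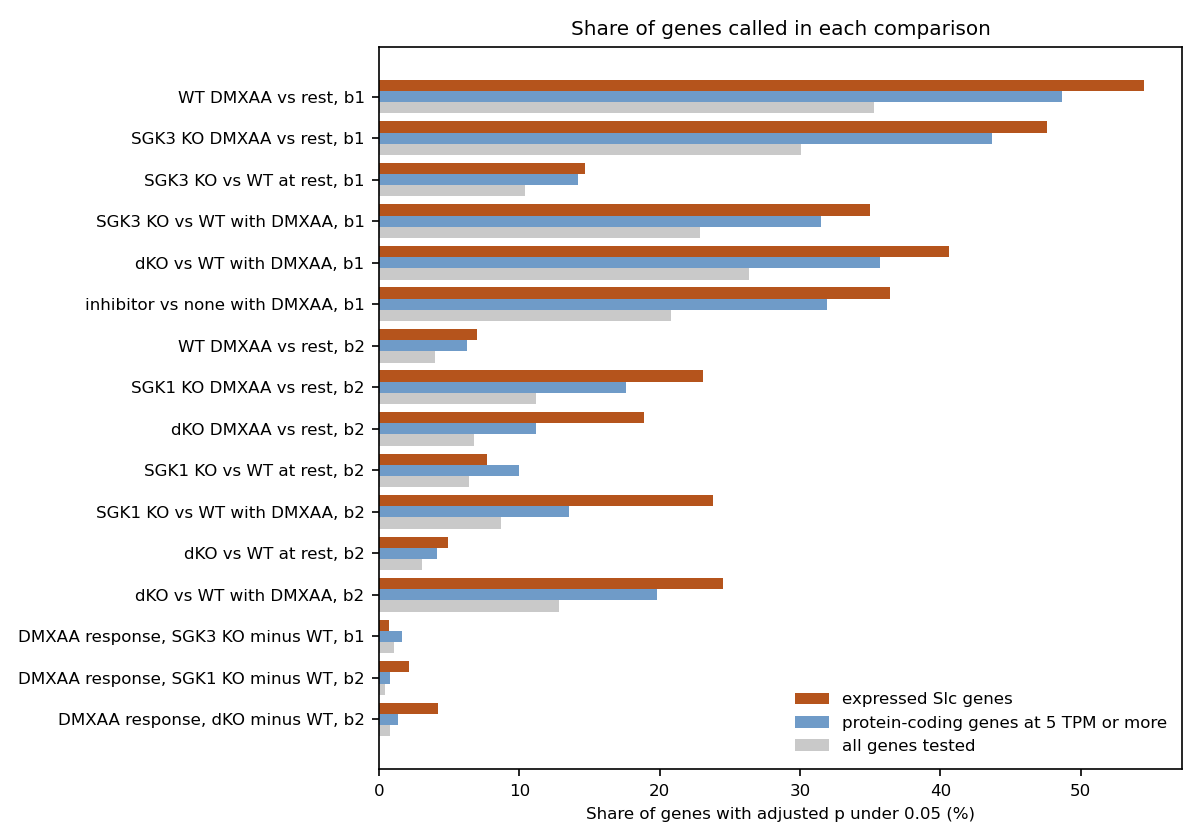
Share of genes with adjusted p under 0.05 (x axis, percent) in each comparison for the 143 Slc genes, for protein-coding genes at 5 TPM or more and for all genes tested. The Slc share is 54.5% in control cells with DMXAA of b1 and 6.99% in those of b2, beside 35.3% and 3.98% of all genes tested.

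The dKO was measured with DMXAA in both batches, against separate control libraries. Of the genes higher in the dKO, 15 were shared, 41.7% of those of b1 and 75.0% of those of b2, and of the genes lower, 7 were shared, 31.8% and 46.7%. Slc19a1 was called in opposite directions. It encodes the reduced folate carrier, which imports cyclic dinucleotides in human cells, and its difference was 0.16 ± 0.05 in b1 (adjusted p = 0.0140) and -0.40 ± 0.08 in b2 (adjusted p = 0.00228), or -0.24 with b3 added (adjusted p = 0.206). The test of the difference between batches called 21 of the 143 genes, 7 with a higher value in b2 and 14 with a lower one (14.7%, beside 7.27% of 18315 genes tested and 13.1% at 5 TPM or more). Batch and line could not be told apart where the batches differ, since the labels do not say whether both batches used 1 dKO line.

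**Figure D4:**
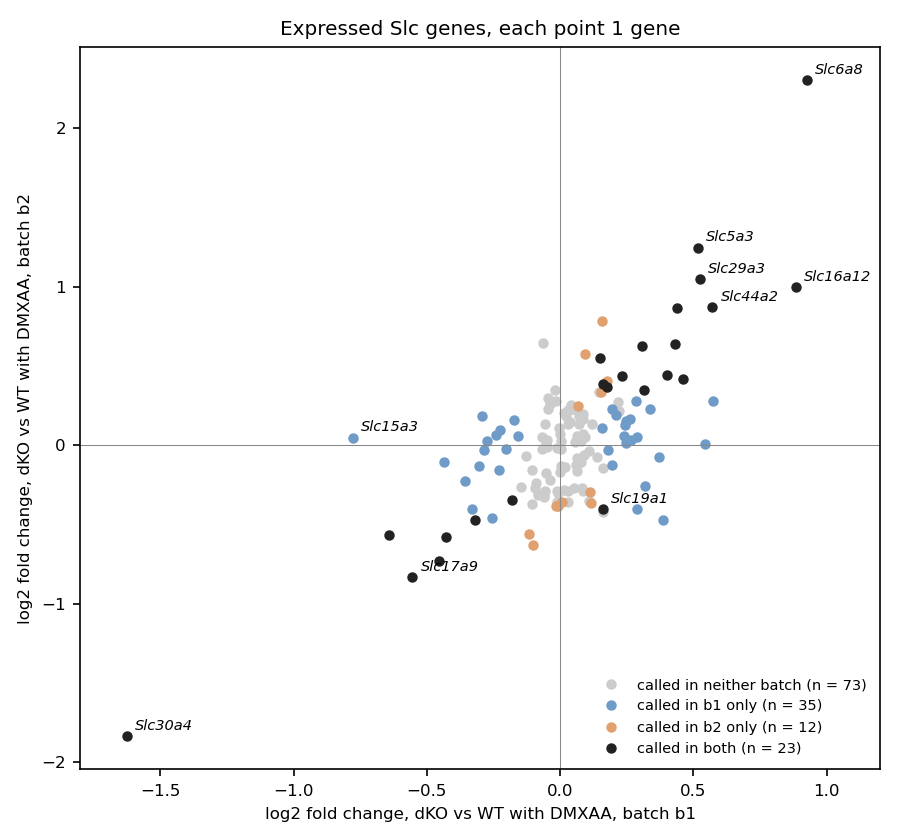
log2 fold change of dKO against control cells with DMXAA in b1 (x axis) and b2 (y axis), 1 point per gene, coloured by the batches in which the gene had adjusted p under 0.05. Both batches called 23 genes, with Slc6a8 at the top right, Slc30a4 at the bottom left and Slc19a1 in opposite directions.

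Slc30a4, a zinc carrier that loads zinc into vesicles, had the largest decrease of the 143 genes in the SGK1 knockout and in the dKO, at rest and with DMXAA. In b1 with DMXAA it was at 32.9, 37.8, 35.5, 41.5 and 37.0 CPM in control cells, at 23.2, 28.4, 23.6, 25.1 and 25.2 in the SGK3 knockout and at 10.6, 14.5, 11.3, 12.5 and 11.1 in the dKO. In b2 with DMXAA, control cells had 48.2, 39.9, 56.8 and 36.9 CPM, the SGK1 knockout 6.52, 8.54, 7.25 and 7.16, and the dKO 10.4, 11.8 and 15.96. No library of an edited line overlapped the control cells of its batch. The log2 fold changes with DMXAA were -0.56 ± 0.08 in the SGK3 knockout (adjusted p = 9.65e-07), -1.63 ± 0.08 in the dKO of b1 (adjusted p = 6.10e-17), -2.62 ± 0.18 in the SGK1 knockout (adjusted p = 3.45e-09) and -1.84 ± 0.20 in the dKO of b2 (adjusted p = 1.25e-06). At rest they were -0.44 ± 0.10, -1.96 ± 0.20 and -1.46 ± 0.20 in the SGK3 knockout, the SGK1 knockout and the dKO of b2. In V and W, Slc30a4 was at 5.19 and 3.66 TPM, beside 3.69 to 6.36 TPM in the b2 dKO libraries and 13.99 to 22.2 TPM in control cells with DMXAA. With b3 added the values were -2.52 in the SGK1 knockout and -1.84 in the dKO, both past the threshold. With the inhibitor, Slc30a4 was at 31.6, 35.4, 35.3, 38.4 and 34.6 CPM, overlapping control cells.

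Slc16a12, a carrier of creatine and monocarboxylates, was higher in every edited line compared, both at rest and with DMXAA. At rest in b2 it stood at 95.6, 120 and 110 CPM in the SGK1 knockout and 104, 105 and 92.0 in the dKO, against 55.4, 50.4 and 57.0 in control cells. These groups did not overlap. The log2 fold changes at rest were 0.42 ± 0.08 in the SGK3 knockout (adjusted p = 0.000320), 1.00 ± 0.11 in the SGK1 knockout (adjusted p = 4.21e-06) and 0.88 ± 0.11 in the dKO (adjusted p = 1.39e-05). With DMXAA they were 0.44 ± 0.06, 0.83 ± 0.09, 0.88 ± 0.06 in the dKO of b1 and 1.00 ± 0.10 in that of b2, all past the threshold, and 0.29 ± 0.06 with the inhibitor. With b3 added, the dKO of b2 was at 0.91 and the SGK1 knockout at 0.79, both called. DMXAA itself lowered Slc16a12 in control cells (-0.62 ± 0.07 in b1 and -0.49 ± 0.10 in b2).

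Of the 5 lipid, choline and acetyl-CoA carriers, 3 passed as higher and 0 as lower in each edited line with DMXAA, in comparisons where 22.9%, 26.4%, 8.72% and 12.8% of all genes tested were called in either direction (SGK3 knockout, dKO of b1, SGK1 knockout and dKO of b2). The other 2 did not pass. Slc44a2, a choline-like carrier, was at 183, 181, 186, 193 and 137 CPM in the dKO of b1 against 114, 128, 120, 111 and 120 in control cells, and at 146, 177 and 175 against 87.8, 89.7, 93.8 and 91.7 in b2. The libraries did not overlap. Its log2 fold changes were 0.57 ± 0.06 (adjusted p = 2.20e-08) and 0.87 ± 0.08 (adjusted p = 6.56e-08). Slc44a1, the choline carrier, was higher by 0.46 ± 0.06 and 0.42 ± 0.11, and Slc27a1, a fatty acid carrier, by 0.31 ± 0.04 and 0.62 ± 0.07, all past the threshold. In V and W, Slc44a2 was at 77.1 and 56.2 TPM, lower than the 87.7 to 120 TPM of the b2 dKO libraries, and W lay within the 50.9 to 58.7 TPM of control cells with DMXAA. Slc44a1 in V and W lay between 120 and 164 TPM, beside 180 to 288 in the b2 dKO and 141 to 193 in control cells with DMXAA, and Slc27a1 at 104 to 106 TPM lay within the 101 to 117 of control cells. With b3 added, the dKO values of b2 were 0.68 for Slc44a2 (adjusted p = 0.00129), 0.42 for Slc27a1 (adjusted p = 0.0417) and 0.23 for Slc44a1 (adjusted p = 0.420, not past the threshold). In the SGK1 knockout Slc44a2 kept its call (0.76, adjusted p = 0.000559), and Slc44a1 (0.40, adjusted p = 0.133) and Slc27a1 (0.31, adjusted p = 0.227) lost theirs.

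A list of 15 genes that encode lysosomal or endosomal carriers, some below the TPM minimum, had 7 higher and 1 lower in the dKO with DMXAA in b1 and again 7 and 1 in b2. It had 6 and 1 in the SGK3 knockout and 5 and 1 in the SGK1 knockout, where the shares called of all genes were those just given for the lipid carriers. In the dKO at rest it had 1 higher and 3 lower, where 3.03% of all genes were called. Slc29a3, a lysosomal nucleoside carrier, was higher in the dKO by 0.52 ± 0.09 in b1 (adjusted p = 2.19e-05) and 1.05 ± 0.18 in b2 (adjusted p = 0.000334), and by 0.59 ± 0.09 in the SGK3 knockout (adjusted p = 4.05e-06). With b3 added, its value in the dKO of b2 was 0.74 (adjusted p = 0.0516). Slc15a4, chosen here after its values were seen, was higher in the dKO by 0.43 ± 0.06 and 0.64 ± 0.11, in the SGK3 knockout by 0.32 ± 0.06, in the SGK1 knockout by 0.49 ± 0.10 and with the inhibitor by 0.33 ± 0.06, all past the threshold, and with b3 added at 0.50 in the dKO of b2 (adjusted p = 0.00525) and 0.46 in the SGK1 knockout (adjusted p = 0.0160). The partner Tasl did not pass the test in the dKO, at -0.24 ± 0.10 in b1 (adjusted p = 0.0870) and 0.06 ± 0.12 in b2 (adjusted p = 0.847), and Irf5 was lower in b2 (-0.41 ± 0.09, adjusted p = 0.00510, and 0.165 with b3 added) and at 0.07 ± 0.04 in b1 (adjusted p = 0.303). The lower gene of the list was Slc15a3 in b1 and Slc11a1 in b2 (-0.63 ± 0.18, adjusted p = 0.0265). The Slc11a1 call was lost without dKO library T (0.138) or U (0.133) or control library L (0.0653) or M (0.0577), and kept with b3 added (-0.82, adjusted p = 0.00362).

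Slc5a3, the sodium/myo-inositol carrier, which takes up an osmolyte, was higher in the dKO with DMXAA by 0.52 ± 0.12 in b1 (adjusted p = 0.00171) and 1.25 ± 0.22 in b2 (adjusted p = 0.000534), or 1.00 with b3 added (adjusted p = 0.00716). With the inhibitor it was at 218, 152, 170, 188 and 163 CPM against 96.4, 123, 81.8, 82.4 and 103, with no overlap (0.87 ± 0.12, adjusted p = 9.73e-06). Slc17a9, a vesicular nucleotide carrier, was lower in the dKO (-0.55 ± 0.13 in b1, adjusted p = 0.00160, and -0.83 ± 0.23 in b2, adjusted p = 0.0191). The b2 call was lost without dKO library T (adjusted p = 0.104) or control library L (0.0664) or N (0.05), and with b3 added (0.101). Slc25a22, a mitochondrial glutamate carrier, was lower in both batches (-0.46 ± 0.06 in b1 and -0.73 ± 0.17 in b2), in b2 not past the threshold with b3 added (-0.46, adjusted p = 0.151). Slc16a1, which exports or imports lactate, was lower in both (-0.32 ± 0.06 and -0.47 ± 0.06, or -0.37 with b3 added, adjusted p = 0.00111).

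The difference in the DMXAA response between edited lines and control cells was called for few of the 143 genes. In b1, 1 gene had a larger value in the SGK3 knockout and 0 a smaller one (0.699%, beside 1.04% of genes tested): Slc35e4, whose fall with DMXAA was -0.20 ± 0.06 in the knockout and -0.60 ± 0.06 in control cells, a difference of 0.41 ± 0.09 (adjusted p = 0.0127), lost without SGK3 knockout rest library 1 (0.0674). That count was 2 without control rest library 2, control library 4 with DMXAA or SGK3 knockout library 5 with DMXAA. In b2 the SGK1 knockout had 3 genes with a larger value and none with a smaller one (2.10%, beside 0.451%), namely Slc6a8, Slc2a6 (0.57 ± 0.11, adjusted p = 0.0178) and Slc27a1 (0.51 ± 0.10, adjusted p = 0.0214). The dKO had 6 with a larger value and none with a smaller one (4.20%, beside 0.782%). These were Slc6a8, Slc31a2, a copper carrier (1.26 ± 0.27, adjusted p = 0.0287), Slc29a3 (1.13 ± 0.26, adjusted p = 0.0463), Slc37a2, a sugar-phosphate carrier (0.61 ± 0.12, adjusted p = 0.0122), Slc44a2 (0.59 ± 0.11, adjusted p = 0.0120) and Slc27a1 (0.48 ± 0.10, adjusted p = 0.0327). At 5 TPM or more the shares were 1.63%, 0.762% and 1.32%.

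Several of these interactions rested on single libraries, and none of those of b2 was called with b3 added. The fit of b2 without the 9 libraries of steep slope left 1 library each for resting SGK1 knockout and DMXAA-treated dKO cells. Its counts are given with the processing alternatives. Neither change was made to the b1 interaction of Slc35e4. The SGK1 knockout count was 1 without control library A or K. The dKO count was 2 without dKO library U or I or control library A, and 3 without dKO library G or H or control library K or L. Leaving out 1 library at a time, Slc6a8 stayed past the threshold in both lines. Slc37a2 lost its call without control library A (adjusted p = 0.0666), and Slc44a2 without dKO library U (0.0514), G (0.0510) or I (0.0545). In the dKO, Slc31a2 lost it without dKO library U, X, H or I or control library A, B, K, L or N (0.0531 to 0.110). Slc29a3 lost it without any library but dKO library T and control library B (0.0628 to 0.182), and Slc27a1 without any but dKO library T and control library N (0.0507 to 0.117). In the SGK1 knockout, Slc27a1 lost its call without control library A, B, C or K or SGK1 knockout library F (0.0512 to 0.0750), and Slc2a6 without control library A or K or SGK1 knockout library E (0.0589 to 0.0666). With b3 added both counts were 0. In V and W, Slc31a2 was at 7.21 to 8.46 TPM against 9.16 to 15.3 in the b2 dKO with DMXAA, Slc29a3 at 4.27 to 6.36 against 8.64 to 16.5, Slc37a2 at 15.95 to 23.1 against 30.2 to 38.2, and Slc27a1 at 104 to 106 against 153 to 187. All 4 genes were thus lower in both reruns than in every b2 library with the same genotype and treatment. The same held for 35.7% of the 143 genes and for 25.2% of protein-coding genes at 5 TPM or more. The 4 genes were picked for a larger response in those b2 libraries, so lower values in other libraries are no independent test.

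The inhibitor, given before DMXAA to control cells, left 25 genes higher and 27 lower than DMXAA alone (36.4%, beside 20.8% of genes tested and 31.9% at 5 TPM or more). Slc29a3 was among the genes that differed in sign from the edited lines of b1. Slc29a3 was at 9.82, 12.5, 12.2, 10.8 and 9.74 CPM with the inhibitor, against 15.9, 16.5, 16.8, 18.2 and 14.3 without, with no overlap. The log2 fold change was -0.57 ± 0.09 (adjusted p = 1.77e-05), where the SGK3 knockout and the dKO of b1 were higher. Slc38a1 (-0.47 ± 0.05, adjusted p = 5.94e-08), Slc23a2 (-0.45 ± 0.05, adjusted p = 1.72e-07), Slc12a9 (-0.41 ± 0.05, adjusted p = 1.35e-07) and Slc25a25 (-0.30 ± 0.05, adjusted p = 5.08e-05), which rose with DMXAA, were lower with the inhibitor. Slc35e4 (0.46 ± 0.05, adjusted p = 9.35e-08) and Slc25a45 (0.44 ± 0.06, adjusted p = 7.39e-07), which fell with DMXAA, were higher. The opposite direction did not hold for every gene. In control cells, Slc43a2 was at 68.3 to 80.2 CPM at rest, 47.9 to 56.3 with DMXAA and 37.6 to 45.8 with inhibitor. Slc16a13 and Slc52a2 also lay lower with DMXAA than at rest, and their libraries with and without the inhibitor overlapped. The comparisons of DMXAA with rest and of inhibitor with none share the control libraries with DMXAA, so opposite signs are not independent. Among other transport genes, Lrrc8d, a subunit of the volume-regulated anion channel, rose with DMXAA by 1.02 ± 0.09 in b1 and was lower with the inhibitor (-0.83 ± 0.08, adjusted p = 1.27e-08).

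**Figure D5:**
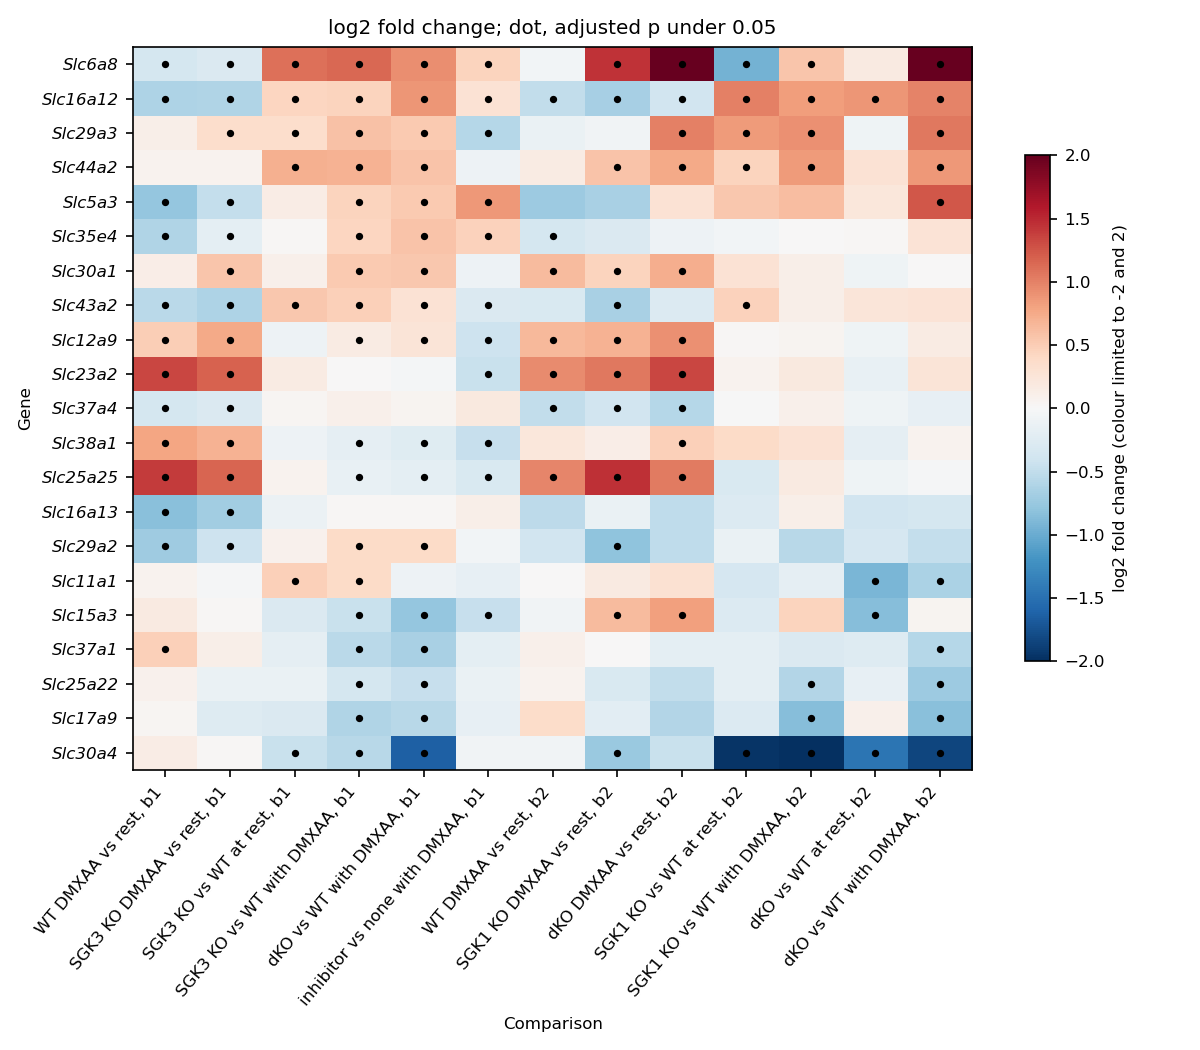
log2 fold changes (colour, limited to -2 and 2) of Slc6a8, Slc15a3 and the genes among the largest changes in 2 or more comparisons (rows), by comparison (columns); dots mark adjusted p under 0.05, and inhibitor is Sanofi-14h. Slc30a4 is lower and Slc16a12 higher in each comparison of an edited line with control cells, and Slc25a25 rises with DMXAA in each line.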

How the data were processed

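RNA sequencing of RAW264.7 cells gave 50 libraries, 1 of them with no group. The deposited tables hold estimated counts per gene (whole numbers in every cell) and TPM made by the authors; the submitters' processing notes name STAR 2.7.9a, StringTie 2.2.0 and GRCm39, and how many counts 1 read gives is not stated in the sources used here. The members, lists and tests were chosen with earlier results of these data known. Each batch was fitted alone with edgeR 4.0.16 in R 4.3.3: TMM scaling, filterByExpr, 1 coefficient per group and quasi-likelihood tests with robust fitting. P-values were adjusted by Benjamini and Hochberg's method across every gene that passed the filter, with a threshold of 0.05. All 143 genes passed the filter in both batches. Standard errors are the log2 fold change divided by the square root of F. CPM compares libraries within b1 or b2, and TPM compares genes. TPM also sets the b3 libraries beside those of b2 and gives the levels of Sgk1, Sgk3, Cxcl10 and Ifnb1.

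Comparisons were 13 pairs of groups, 3 differences in response and 2 differences between batches, the last from a fit of b1 and b2 together. Genes named were Slc6a8 and Slc15a3, in each pair of groups up to 4 per direction with the largest change among those past the threshold whose libraries did not overlap, the 10 of highest TPM, the 3 either side of the TPM threshold, and Slc19a1. Slc15a4, Slc44a1 with DMXAA, Slc27a1, Slc37a2, Slc25a44 and the partner genes were named after their values were seen. Alternatives were DESeq2 1.42.0, its size factors, no filter, limma 3.58.1 on log2(TPM + 1) and log2(TPM + 0.1), removal of a length trend, only the groups compared, a replicate block, and each library left out. On simulated counts with 100 genes changed at each size, the fit of SGK3 knockout against control cells with DMXAA in b1 recovered 51% at a log2 change of 0.5 and 64% at 1 among 16947 genes, and that of the SGK1 knockout in b2 25% and 52% among 16622 genes. Whether the counting used strand is not stated in the sources used here, so overlapping genes cannot be told apart.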

Additional observations from a re-analysis of the deposited data

Results flagged for a closer look

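For 10 responses to DMXAA, the difference between an edited line and control cells passed the test. On the log2 scale it was 0.405 for Slc35e4 in the SGK3 knockout of b1. In the SGK1 knockout of b2 it was 1.5 for Slc6a8, 0.569 for Slc2a6 and 0.507 for Slc27a1. In the dKO of b2 it was 2.12 for Slc6a8, 1.26 for Slc31a2, 1.13 for Slc29a3, 0.612 for Slc37a2, 0.588 for Slc44a2 and 0.479 for Slc27a1.

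In 18 of 234 groups checked, over 39 genes, 1 library lay far from the others, where chance gives about 1 in 20. The groups checked were those of 4 or 5 libraries. Groups of 3, which are all resting groups and the dKO with DMXAA of b2, were not checked. The values are the gap to the nearest library over the whole range of the group. In the dKO of b1, library 5 was lowest for Slc11a1 (0.747), Slc2a6 (0.770), Slc30a1 (0.834) and Slc44a2 (0.771) and highest for Slc25a15 (0.756), and library 3 was highest for Slc17a9 (0.850). Slc44a2 in library 5 was at 137 CPM beside 181 to 193 in the others. In the SGK3 knockout with DMXAA, library 4 was highest for Slc35b1 (0.745), Slc35e4 (0.813) and Slc7a6os (0.803), library 2 was lowest for Slc37a4 (0.883) and highest for Slc6a13 (0.747), and library 5 was lowest for Slc11a2 (0.782). In control cells of b1, library 1 with DMXAA was highest for Slc16a13 (0.733) and library 1 with inhibitor lowest for Slc43a3 (0.730). In control cells with DMXAA of b2, library M was lowest for Slc25a25 (0.946; 62.5 beside 63.5 to 63.6 CPM) and highest for Slc25a43 (0.832), and library L was highest for Slc52a2 (0.929). In the SGK1 knockout with DMXAA, library R was highest for Slc2a6 (0.843).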

How the results depend on the processing

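Results of single genes in this section are those of named genes, most of them picked as the largest changes without overlap. They do not cover every called gene. Of 115 such called results, 66 kept their direction and call under every alternative, and 0 called values changed sign. Counts of called genes follow. DESeq2 gave 27 for the SGK1 knockout at rest and 2, 7 and 11 for the response differences of the SGK3 knockout, SGK1 knockout and dKO. With b1 and b2 fitted together, the SGK3 knockout had 7 at rest and 33 with DMXAA, the inhibitor 33, control cells of b2 21, the SGK1 knockout response 53 and the dKO response 47, the SGK1 knockout against control cells 48 at rest and 62 with DMXAA, the dKO 67 with DMXAA, and the response differences 0, 9 and 15. With the reruns added, chosen after seeing the data, the SGK1 knockout response had 18, the dKO response 13, the SGK1 knockout with DMXAA 11, the dKO with DMXAA 20 and both response differences 0. With only the groups compared, the SGK3 knockout at rest had 32, the SGK1 knockout response 14, the dKO response 17, the SGK1 knockout at rest 2 and the SGK3 response difference 2. limma on log2(TPM + 0.1) gave 11 for the SGK3 knockout at rest, 3 for control cells of b2, 20 for the SGK1 knockout with DMXAA, 3 for the dKO at rest and 0, 0 and 1 for the response differences, and log2(TPM + 1) gave the same counts but 21 for the SGK1 knockout with DMXAA. Removing the length trend gave 5 for the SGK3 response difference. A minimum of 10 TPM gave 3 for the dKO response difference. Without libraries E, F, P and X, the SGK1 knockout response had 13, the SGK1 knockout at rest 2 and its response difference 0. Without all 9 libraries of b2 with a slope beyond 0.1 in either direction, chosen after seeing the data, control cells had 5, the SGK1 knockout and dKO responses 9 each, the SGK1 knockout 2 at rest and 10 with DMXAA, the dKO 2 and 10, and both response differences 0; 37 called results of single genes were lost. The cause was not tested.

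Leaving out 1 library at a time gave 69 to 80 for control cells with DMXAA of b1, 54 to 69 for the SGK3 knockout response, 11 to 18 and 45 to 49 for the SGK3 knockout at rest and with DMXAA, 55 to 60 for the dKO of b1, 44 to 52 for the inhibitor, 6 to 9 for control cells of b2, 20 to 36 and 19 to 24 for the SGK1 knockout and dKO responses, 4 to 35 and 21 to 39 for the SGK1 knockout at rest and with DMXAA, 2 to 6 and 27 to 35 for the dKO, and 0 to 2, 1 to 4 and 2 to 6 for the response differences. Replicate numbers in b1 did not pair the libraries: the 57 same-numbered pairs had correlations of -0.119 to 0.087, and a replicate block gave 80, 63, 20, 50, 60, 54 and 1 called genes for the 7 comparisons of b1, in the order of the response of control cells, the response of the SGK3 knockout, that line at rest, with DMXAA, the dKO, the inhibitor and the response difference. With block and length trend removal these were 81, 71, 27, 52, 59, 58 and 4. Libraries of b2 carry letters and were not paired. Genes near 5 TPM have the fewest counts and the largest counting error.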

Other observations

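Library J of b3, from control cells, is titled as untreated while its treatment label gives DMXAA, and it entered no group. Its levels were 4.63 TPM for Slc6a8, 10.3 TPM for Slc15a3 and 40.8 TPM for Slc25a25. Cxcl10 was at 525 TPM and Ifnb1, which encodes interferon beta, at 31.4 TPM, where every grouped library at rest had 1.59 to 14.8 TPM of Cxcl10 and Ifnb1 was listed at 0.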
